A study of Mus musculus with 3 samples.

Results

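The deposited annotation held 9098 genes with a transcript typed as lincRNA (long intergenic non-coding RNA) or antisense and none typed as protein-coding, once well-known long RNAs such as Malat1, Neat1 and Tug1 and the Snhg hosts of small nucleolar RNAs were set aside. Of these, 230 (2.53%) had a mean of 1 TPM or more over 3 libraries, and they are the intergenic and antisense long RNAs described here; 55536 genes were annotated in all. TPM is a gene's count divided by its effective length and scaled to the same total in every library, so it also depends on every other abundant RNA. Because the members were chosen by their mean TPM, their levels are a description and carry no test. By type, 113 members were lincRNAs, 116 were antisense and 1, 4933439K11Rik, had transcripts of both types, while 6281 of the 9098 genes had no count in any library.

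Libraries were made from the cytosolic fraction of bone-marrow-derived macrophages of C57BL/6J mice, as total RNA depleted of ribosomal RNA, from 1 µg of RNA and with a size range of 250 to 400 bases. Before harvest the cells saw Lipid A at 100 ng/ml for 12 hours, were held without it for 12 hours, and were given the same 100 ng/ml dose once more for 40 minutes. Toll-like receptor 4 senses Lipid A, the lipid anchor of bacterial lipopolysaccharide. The 3 libraries, biological replicates 1, 2 and 3 of this 1 group, share a donor label, and whether they came from separate animals was not stated, so the spread between them may be technical. Untreated and once-treated cells were not analysed here, so every value is a level and not a response. In bulk RNA, fewer cells of a type and less RNA per cell cannot be told apart.

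Long non-coding RNAs are transcribed and processed much like messenger RNAs but are not translated into a known protein; many stay in the nucleus, where they act on chromatin or nearby genes, and others act in the cytosol as binding platforms for proteins or microRNAs. Antisense RNAs are read from the strand opposite another gene and can share sequence with it. In macrophages, several long RNAs take part in the inflammatory programme, and some are the precursors of microRNAs that tune it.

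Expected counts on annotated genes were 38197192, 46327891 and 38685666 in replicates 1, 2 and 3. Where no read was counted, up to 3 counts remain possible at 95% confidence, or 0.0785, 0.0648 and 0.0775 CPM (counts scaled to a common library total), for counting error only. Summed over 6 macrophage markers including Adgre1, Csf1r and Lyz2, TPM was 3710 to 5194 per library, while sums over markers of T cells, B cells, neutrophils, fibroblasts and mast cells (3 each) were at most 0.37 TPM. Replicate 2 was low in the nuclear RNAs Malat1 and Neat1, with deviations of -1.57 and -2.32, but less so in Rn7sk, the nuclear 7SK RNA, whose deviations were -0.34, -0.43 and 0.75 in replicates 1, 2 and 3; here a deviation sets the log2 TPM of 1 library against the average of both others and is centred on 9106 nuclear protein-coding genes with 1 TPM or more in all libraries. Replicate 3 stood apart in a list of 12 inflammatory coding genes: all 12, Tnf, Il1b and Ptgs2 among them, were lowest there, with deviations of -1.53 to -0.52 (median -0.85).

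Most members were scarce. Mean TPM was above 100 for 6 members, 20 to 100 for 12, 5 to 20 for 40, 2 to 5 for 76 and 1 to 2 for 96, and the median was 2.16 TPM against 8.14 TPM over the 9403 nuclear protein-coding genes that met the same threshold. All members together held 0.994%, 0.478% and 0.739% of TPM in replicates 1, 2 and 3, a mean of 0.737% ± 0.258 (SD, n = 3). One RNA, Rmrp, made up 53.4% of that and the 4 most abundant members 76.5%.

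Rmrp is the RNA of RNase MRP, an enzyme that cleaves ribosomal RNA precursors. The member under this symbol (mm10, the build of all coordinates here, chromosome 4, 43492783 to 43493063, minus strand) had 5336, 2707 and 3677 TPM in replicates 1, 2 and 3, highest in replicate 1 and lowest in replicate 2. A separate ribozyme-typed gene of the same name (chromosome 4, 43492788 to 43493058, minus strand), not a member because of its type, covers 96.4% of the member's bases and had 9374, 7954 and 17741 TPM. The member took 36.3%, 25.4% and 17.2% of the summed TPM of the pair, so the division of reads between these near-identical records is uncertain and differed between libraries. In a second quantification by the authors, made from the reads themselves, the member had 1342, 1172 and 1584 TPM, highest in replicate 3. In the gene tables, D730003I15Rik, Adap2os and Gm47242 came closest to the member in mean-centred log2 TPM over the 3 libraries. Their root mean square differences were 0.013, 0.020 and 0.026 log2 units. Such likeness rests on the uncertain division of reads and, with 3 libraries, is a description only.

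Gm26917 and Gm42418 lie side by side on chromosome 17 (39843013 to 39846341 and 39846958 to 39848788, both on the plus strand), a locus known to take reads of the ribosomal RNA repeat. Gm26917 had 1852, 236 and 1402 TPM and Gm42418 396, 77.6 and 419 TPM. Both were several-fold lower in replicate 2 than in either other library, with deviations of -2.63 and -2.26. Gm42418 lies for 99.5% of its exonic bases opposite the annotated ribosomal RNA gene CT010467.1, which had a mean of 259 TPM. What ribosomal RNA left after depletion contributed to Gm26917 and Gm42418 was not tested. Without both, the members held 0.591% of TPM.

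AW112010, a lincRNA of macrophages known to be induced by bacterial products and interferon and to carry a short translated reading frame, stood between Gm26917 and Gm42418 in mean TPM (chromosome 19, 11047612 to 11055808, minus strand). Its levels were 473, 364 and 236 TPM in replicates 1, 2 and 3 (358 ± 119, SD, n = 3), lowest in replicate 3, the library in which the 12 inflammatory coding genes were also lowest. After these 4, the members in rank were Gm10076 (236, 309 and 323 TPM), Gm26716 (141, 120 and 120 TPM), 2900097C17Rik (69.5, 58.6 and 56.4 TPM), Gm20559 (69.3, 42.8 and 56.2 TPM), Gm37401 (67.8, 44.3 and 48.7 TPM), Gm36161 (59.9, 43.0 and 42.7 TPM), Gm15655 (24.0, 41.3 and 67.4 TPM) and Gm28872 (37.95, 24.6 and 51.1 TPM). Among these 8, Gm15655 was the member whose libraries were furthest apart, lowest in replicate 1 and highest in replicate 3. Gm28872 has an effective length of 5.77 bases and a mean of 14 expected counts, so its TPM rests on few reads. It lies for 84.8% of its exonic bases opposite the small nuclear RNA gene Rnu11, which was listed at a mean of 0 TPM.

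**Figure D1:**
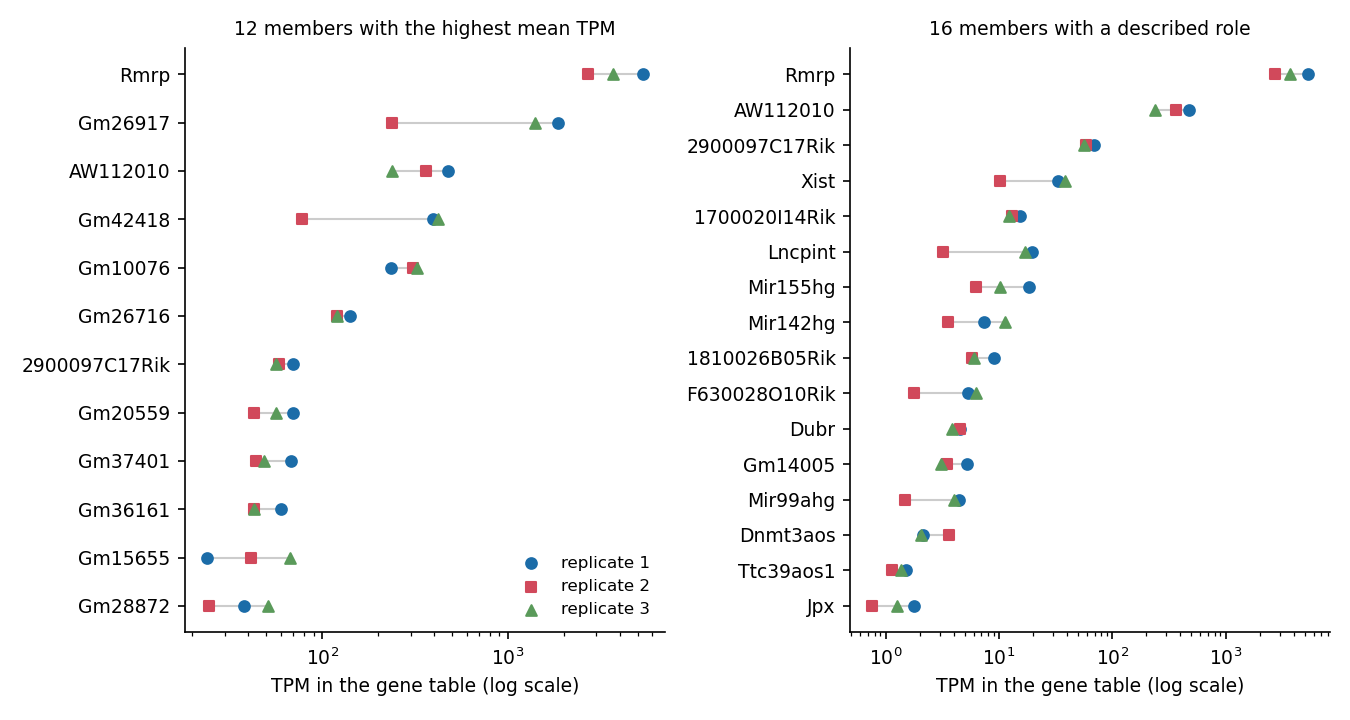
TPM on a log axis in the gene tables for the 12 most abundant members (left) and for the 16 members with a described role (right); each point is 1 library and the grey line spans the 3. Gm26917, Gm42418, Xist and Lncpint have replicate 2 far below both other libraries, while 2900097C17Rik and 1700020I14Rik have all 3 close together.

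The promoters of the most abundant members outside the ribosomal RNA locus that have an entry in the RefSeq promoter table (GRCm38.p6) are shown because these RNAs are among the most abundant members. Each is given 5′ to 3′ on the gene's own strand, from 250 bases before to 50 after the RefSeq start, with motif matches in capitals.
AW112010 (chr19:11050517-11050816): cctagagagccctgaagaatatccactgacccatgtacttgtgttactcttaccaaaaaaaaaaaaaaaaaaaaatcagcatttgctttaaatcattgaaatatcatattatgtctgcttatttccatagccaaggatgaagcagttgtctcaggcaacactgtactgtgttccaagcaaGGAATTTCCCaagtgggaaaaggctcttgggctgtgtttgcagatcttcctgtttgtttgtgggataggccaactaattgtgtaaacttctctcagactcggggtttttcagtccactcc
Gm20559 (chr6:3346089-3346388): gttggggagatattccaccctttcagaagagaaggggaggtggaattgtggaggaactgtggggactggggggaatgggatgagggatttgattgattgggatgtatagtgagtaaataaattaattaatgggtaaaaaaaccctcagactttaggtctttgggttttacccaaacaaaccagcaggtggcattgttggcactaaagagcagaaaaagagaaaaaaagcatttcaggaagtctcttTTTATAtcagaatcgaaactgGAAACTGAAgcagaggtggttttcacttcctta
Gm36161 (chr13:120010092-120010391): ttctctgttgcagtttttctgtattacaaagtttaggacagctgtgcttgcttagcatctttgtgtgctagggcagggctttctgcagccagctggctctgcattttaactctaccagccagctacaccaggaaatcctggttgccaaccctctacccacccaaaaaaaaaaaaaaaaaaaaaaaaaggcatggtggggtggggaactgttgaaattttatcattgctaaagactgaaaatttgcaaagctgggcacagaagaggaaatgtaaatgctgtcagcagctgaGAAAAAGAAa
In AW112010 the capitals mark the 1 match to the NF-kB consensus, on the opposite strand, 70 bases before the start. In Gm20559 they mark TATAAA on the opposite strand and the interferon-response core GAAANNGAA, and in Gm36161 the GAAANNGAA core, both cores lying after the start. The RefSeq starts of Gm20559 and Gm36161 lie 10 and 48 bases from the annotated ones. Over the 111 members with an entry, the NF-kB consensus was found in 4.50% against 5.14% of 27025 genes in the table, the AP-1 motif TGANTCA in 9.91% against 8.97%, GAAANNGAA in 16.2% against 9.76%, the ETS motif GAGGAAGT in 6.31% against 3.69%, the cyclic AMP element TGACGTCA in 0.901% against 2.03%, TATAAA in 13.5% against 15.7% and the GC box GGGCGG in 36.0% against 38.2%. Both strands were searched, the motifs can overlap, and a match is a run of letters, not a known binding site.

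Of 60 long RNAs with a described role that matched the annotation, 51 met the type rule. Of these 51, 16 were members, against 2.53% of all 9098 genes that met it. The others of the 60 could not be members at any level, and ranged from Tunar, listed at 0, to 2410006H16Rik at a mean of 26.8 TPM. Members tied to innate immunity or myeloid cells were mostly at a few TPM. Gm14005, known as Morrbid and described as a regulator of the lifespan of short-lived myeloid cells through Bcl2l11, had 5.22, 3.51 and 3.11 TPM. Ttc39aos1, known as lincRNA-EPS and described as a restraint on immune genes in macrophages, had 1.51, 1.15 and 1.37 TPM. Dnmt3aos, antisense to the DNA methyltransferase gene Dnmt3a, had 2.16, 3.66 and 2.07 TPM, highest in replicate 2 (deviation 0.93). Its partner Dnmt3a had 55.5, 55.2 and 33.1 TPM, lowest in replicate 3. Ptgs2os2, the annotation's name for lincRNA-Cox2, is induced by Toll-like receptor ligands but had a mean of 0.217 TPM and was not a member; Mirt1 had 0.080 TPM and Mirt2 was listed at 0.

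Precursors of microRNAs formed another group: 8 members contained a miRNA hairpin on their own strand. Mir155hg (chromosome 16, 84703167 to 84715245, plus strand), the precursor of miR-155, a microRNA induced by Toll-like receptor signalling, had 18.6, 6.25 and 10.2 TPM. Mir142hg (chromosome 11, 87755577 to 87757270, plus strand), whose miR-142 marks blood cells, had 7.42, 3.54 and 11.2 TPM from 19 counts in replicate 2. F630028O10Rik (chromosome X, 96239926 to 96243636, plus strand), whose miR-223 is abundant in myeloid cells, had 5.30, 1.79 and 6.23 TPM. Each of these 3 was lowest in replicate 2, and the deviations of Mir155hg, Mir142hg and F630028O10Rik there were -1.005, -1.23 and -1.55. Dleu2, which carries miR-15a and miR-16, had 12.6, 9.37 and 14.3 TPM, and Mir99ahg, which carries miR-99a, let-7c and miR-125b, had 4.43, 1.48 and 4.04 TPM. The other hosts, Gm37233, 2900076A07Rik and 4833445I07Rik, had means of 1.77, 1.18 and 1.07 TPM. These are levels of the host transcripts, not of the microRNAs.

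Mature sequences from the 5 best-expressed hosts, from RefSeq (GRCm38.p6), are shown to place the seed (bases 2 to 8, capitals), the part that pairs with target messages. The miR-15a-5p and miR-16-5p arms of Dleu2 share 1 seed, and the other seeds printed differ from it and from each other. Of the 16 mature arms of these hosts, 9 are printed: both arms of miR-142a and 1 arm of every other hairpin.
miR-155-5p: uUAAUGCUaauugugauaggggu
miR-142a-5p: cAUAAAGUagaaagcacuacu
miR-142a-3p: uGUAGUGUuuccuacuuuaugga
miR-223-3p: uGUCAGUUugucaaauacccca
miR-15a-5p: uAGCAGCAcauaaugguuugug
miR-16-5p: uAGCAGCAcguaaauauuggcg
miR-99a-5p: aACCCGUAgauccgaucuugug
let-7c-5p: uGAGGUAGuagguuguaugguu
miR-125b-5p: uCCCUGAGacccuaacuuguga

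Norad and Cyrano, long RNAs described as acting in the cytosol, differed little between libraries. 2900097C17Rik, known as Norad, binds Pumilio proteins, which destabilize messages, and its 61.5 ± 7.0 TPM (SD, n = 3) came with deviations of 0.04, 0.04 and -0.09. Its longest transcript of 4915 bases held 11 matches to the Pumilio element TGTANATA, the most of the 230 members; Xist followed with 6, and 39 members had any. 1700020I14Rik, known as Cyrano or Oip5os1, directs decay of the microRNA miR-7 and had 15.3, 12.9 and 12.2 TPM. Its miR-7 site, at bases 2935 to 2959 of the 8300-base transcript, is printed with miR-7a-5p; capitals in the site mark the 21 of the 23 miRNA bases that can pair, lower case the unpaired bases of the site, and capitals in miR-7a-5p the seed.
1700020I14Rik site: ACAACAAAATCACcaatGTCTTCCA
miR-7a-5p: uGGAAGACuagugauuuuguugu

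Xist, which coats and silences an X chromosome from inside the nucleus, had 33.6, 10.2 and 37.96 TPM, and Jpx, its activator, 1.77, 0.76 and 1.26 TPM. Lncpint, a p53-induced RNA described as acting on chromatin, had 19.5, 3.24 and 17.1 TPM. Replicate 2 was lowest for all 3, with deviations of -1.67, -0.84 and -2.35. 1810026B05Rik, known as Chaserr and a regulator in cis of its neighbour Chd2, had 9.08, 5.79 and 6.04 TPM, and Dubr 4.55, 4.56 and 3.85 TPM, with deviations in replicate 2 of -0.22 and 0.26. Among the 16 members with a described role, 10 (62.5%) were lowest in replicate 2, near the 61.3% of all members and against 52.2% of coding genes, and 6 had a deviation below -1 there.

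Across libraries, members varied more than coding genes. The median SD of log2(TPM + 1) over the 3 libraries was 0.30 for members and 0.16 for coding genes at 1 TPM or more, and the gap was present in each band of mean TPM: 0.27 against 0.13 at 1 to 2 TPM, 0.30 against 0.14 at 2 to 5, 0.35 against 0.16 at 5 to 20 and 0.47 against 0.18 above 20. In an intercept-only edgeR model fitted to all genes, the median biological coefficient of variation was 0.281 over the 217 members that passed filterByExpr and 0.122 over 9396 coding genes. Replicate 2 carried much of this: without it the median SD of members was 0.18 against 0.13 for coding genes, and their median coefficient of variation was 0.176 against 0.113. Members have fewer counts than coding genes at the same TPM (a median of 78.3 against 235 at 1 to 2 TPM), and the part of counting error in the gap was not tested.

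In replicate 2, 55 of the 227 members with a value in every library (24.2%) had a deviation below -1, that is, more than 2-fold under the other libraries, against 0.723% of 9400 coding genes. In replicates 1 and 3, 4 and 3 members (1.76% and 1.32%) were that low, against 0.234% and 0.553% of coding genes. Since membership rests on the mean, 52 members were below 1 TPM in replicate 2 and met the threshold through the other libraries; among the 167 members at 1 TPM or more in every library, a filter that itself removes low values, the count was 24 (14.4%) against 0.373% of coding genes. The count in replicate 2 was 57 in the read-based tables, a second quantification by the authors made from the reads themselves, and 48 of the 55 were below -1 there as well. It was 45 among members with at least 50 mean counts, 56 when replicate 2 was set against replicate 3 alone and 58 against replicate 1 alone. Malat1, Neat1 and Kcnq1ot1, RNAs known to be held in the nucleus, were lower in replicate 2 as well, with deviations of -1.57, -2.32 and -1.78; how much nuclear RNA entered each cytosolic fraction was not tested.

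**Figure D2:**
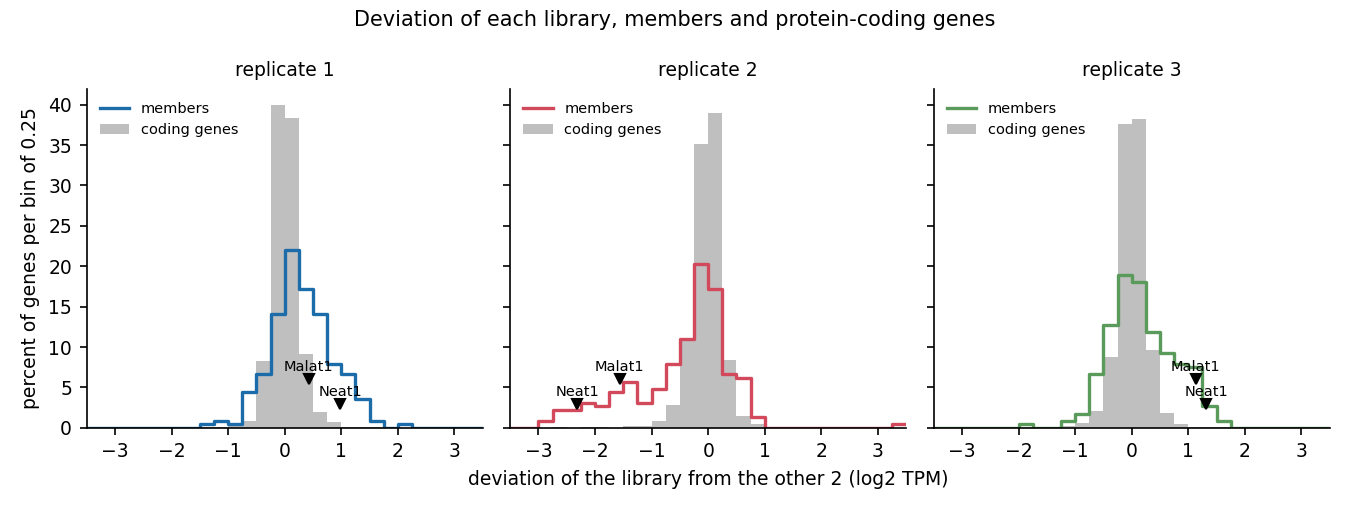
Distribution of the deviation of each library in log2 TPM, in bins of 0.25, for 227 members (coloured line) and 9400 protein-coding genes (grey bars), as percent of genes; black marks give Malat1 and Neat1. In replicate 2 the members have a long tail to the left that reaches past -2 and has almost no counterpart among coding genes.

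Several members low in replicate 2 were chosen for display after their values were seen. Gm26772, inside Zmiz1, had 2.01, 0.21 and 1.6 TPM, and Gm26857, at the Src-family kinase gene Lyn, had 7.04, 1.06 and 8.14 TPM. 4933423P22Rik, antisense within the receptor phosphatase gene Ptprj, had 4.12, 0.50 and 2.85 TPM. Gm28913 and Gm28914, both antisense to the kinase gene Ikbke and so not independent, had 10.4, 1.41 and 8.08 TPM and 4.40, 0.72 and 3.29 TPM. AC119228.1, antisense to Cd274, which encodes the checkpoint ligand PD-L1, had 19.3, 4.06 and 17.1 TPM. In each of these 6 members replicate 2 lay well below both other libraries.

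Few coding genes opposite the low antisense members were themselves below -1 in replicate 2, but their median deviation was negative. Of the 30 antisense-typed members below -1 in replicate 2, 27 had a coding partner with a value in every library, from 25 distinct partners. The median deviation of these partners in replicate 2 was -0.18. Among them, 1, Mast4 at -1.43, was itself below -1, against 0.723% of all coding genes. Over the 90 pairs with a partner at 1 TPM or more, the median partner deviation there was -0.014. The Pearson r between member and partner deviations over these pairs was 0.31. Cd274 had 272, 221 and 166 TPM, a deviation of 0.19, beside -2.03 for AC119228.1. Ikbke, at 110, 49.5 and 93.4 TPM and a deviation of -0.90, came nearer to its antisense members than Cd274 did. By structure, the 55 members had a median longest transcript of 1820 bases and 8 had a single exon, while the 125 members within 0.5 of 0 in replicate 2 had 1541 bases and 25 single-exon genes.

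At the other end, 4 members of 2 TPM or more had the smallest SD of log2(TPM + 1). AC158975.2 had 3.68, 3.55 and 3.55 TPM, Brip1os 10.3, 9.45 and 9.65 TPM, Gm26825 3.5, 3.90 and 3.76 TPM, and Gm26782 4.63, 4.52 and 5.0 TPM. Gm26825 lies for 91.8% of its exonic bases opposite the processed pseudogene Gm15459 and had 0.034, 0.065 and 0.104 TPM in the read-based tables, so neither its level nor its evenness held there. The 6 with the largest SD were Gm23925, Bc1, Gm26917, Gm42418, Gm44170 and Lncpint. Gm23925 (66.3, 0 and 11.7 TPM) has an effective length of 1.45 bases and a mean of 2.30 counts. It lies wholly inside exons of Snhg17 on its own strand. A gene of the same name typed as a small nucleolar RNA has almost the same coordinates and was listed at 0 TPM in every library. Bc1 (8.13, 0 and 0 TPM) had counts, 4 of them, in replicate 1 alone, but 9.57, 6.52 and 13.6 TPM in the read-based tables. Gm44170 (0.04, 3.74 and 4.21 TPM) lies wholly inside exons of Sec61a1 on the other strand.

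Some members were low in replicate 3. A deviation below -0.5 there was found for 22 members (9.69%) against 3.23% of coding genes. Members also spread further upwards in this library: 26 (11.5%) had a deviation above 1, against 0.277% of coding genes. The median deviation of members there was 0.10, so members as a set were not low in replicate 3. 4930430E12Rik had 46.3, 29.6 and 19.3 TPM, Gm43351 7.27, 8.11 and 3.93 TPM, Gm35154 2.43, 2.68 and 1.24 TPM, and 1600020E01Rik 2.62, 1.5 and 0.87 TPM, each lowest in replicate 3; these were chosen after their values were seen. Gm13822, antisense to the interferon-induced gene Oasl1, followed AW112010 most closely of all members (root mean square difference 0.024 log2 units), with 5.18, 3.92 and 2.65 TPM from 22 counts in replicate 3. Of the 8 members lowest in replicate 3, 3 (Gm10552, Gm26669 and Gm49482) had a deviation above 0 there in the read-based tables, so their place depends on the table. The part that the lower inflammatory genes of replicate 3 had in these levels was not tested.

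**Figure D3:**
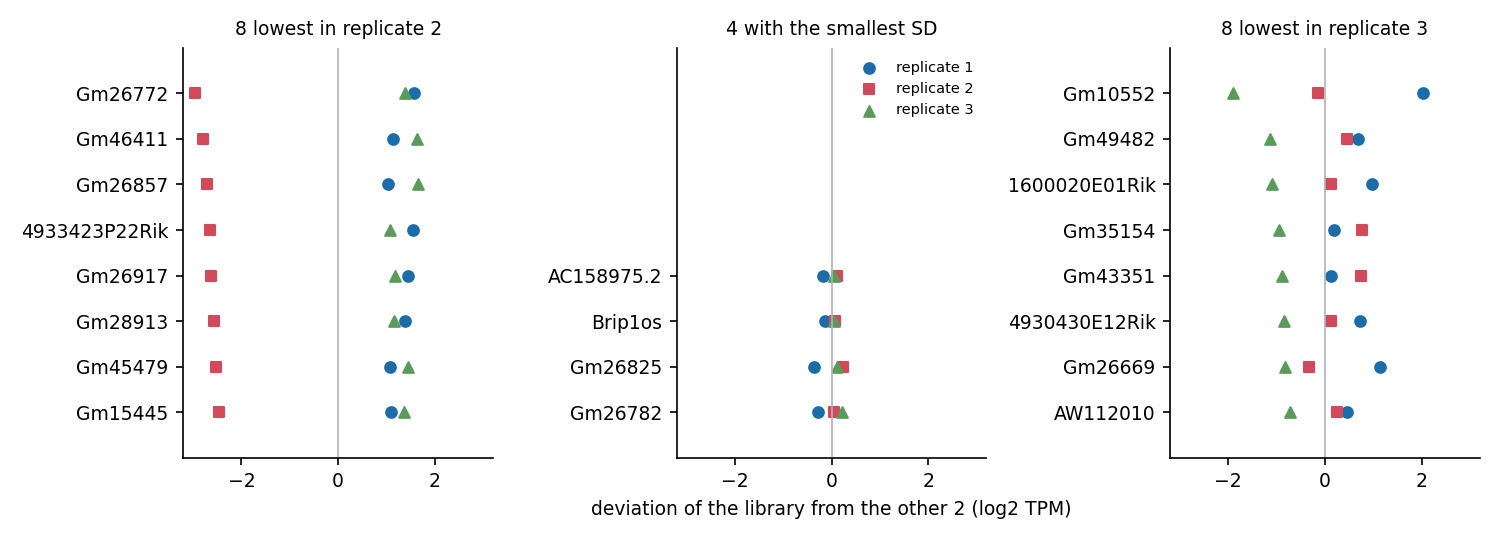
Deviation of each library in log2 TPM for the 8 members lowest in replicate 2, the 4 members of 2 TPM or more with the smallest SD, and the 8 members lowest in replicate 3; each point is 1 library. In the left panel replicates 1 and 3 lie above 1 and replicate 2 below -2, in the middle panel all points lie within 0.36 of 0, and in the right panel replicate 3 is at or below -0.73, though 3 of these 8 members were above 0 there in the read-based tables.

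Antisense-typed members were mostly scarcer than the coding gene they overlap. Of the 117 (the 1 of both types included), 108 overlapped a protein-coding gene on the other strand, from 105 distinct partners; 81 were below the partner in all 3 libraries, 22 above it in all 3, and the median log2 ratio of member to partner was -3.08, with a median partner level of 23.1 TPM. By the mean ratio 23 were above. Whether the quantifiers used strand was not stated, and without strand, reads from an antisense RNA and its partner cannot be told apart where their exons overlap.

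Of the 23 members above their partner, 17 stood opposite a gene under 1 TPM, and no such partner exceeded 4.31 TPM. Members have a mean of 1 TPM or more by choice, so they exceed any partner under 1 TPM by construction. The partner is the coding gene with the longest overlap of gene bounds, and 5 of the 23 had another coding gene with as large or larger exon overlap, which was above the member in 4. Sp3os had 5.25, 4.42 and 3.47 TPM while its partner Gm11084 was listed at 0 in every library; the transcription factor gene Sp3, which overlaps 12.2% of its exonic bases, had 21.3 TPM. 9530082P21Rik had a mean of 3.19 TPM against 0.013 for Kremen2, but 7.25 for Flywch1, which overlaps more of its exonic bases. Gm17056 had 1.04 against 0.0067 for Lsmem1 and 6330418K02Rik 1.22 against 0.030 for Gal3st4. Plxna4os1 had 2.05 ± 0.17 TPM against 0.020 for the semaphorin receptor gene Plxna4. Bach2os had 2.04 ± 0.34 TPM against 0.057 for Bach2, a repressor best known in lymphocytes, a log2 ratio of 4.97 ± 0.47 (SD, n = 3). Brip1os had 9.79 ± 0.42 TPM against 3.01 ± 0.13 for Ints2, a log2 ratio of 1.70 ± 0.02, and 14.1 for Med13, which overlaps more of its exonic bases.

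The lowest ratios can occur only opposite abundant genes, given the threshold on members. Gm20234 had 2.36, 0.92 and 2.55 TPM against 509, 434 and 337 TPM for Slfn2, a Schlafen gene needed for immune cell quiescence, a log2 ratio of -7.88 ± 0.92; in the read-based tables the pair had 6.67 and 167 TPM, a far smaller gap. Gm2245 had 2.82, 0.54 and 2.26 TPM and a log2 ratio of -7.72 ± 1.23 to the adaptor gene Fyb. Gm11131 was at -7.45 ± 0.09 to the class I gene H2-Q4 and 4930539J05Rik at -6.80 ± 0.28 to the ubiquitin-conjugating enzyme gene Ube2d3. Other members opposite abundant macrophage genes, chosen after their values were seen, were Zeb2os at -3.09 ± 0.11 to Zeb2, Gm37787 at -4.59 ± 0.48 to Slamf7, BE692007 at -5.14 ± 0.34 to Ms4a6c, Gm16712 at -5.21 ± 0.63 to the cytokine subunit gene Ebi3 and Gm40578 at -5.26 ± 0.98 to Tnfaip2. In the read-based tables Zeb2os and Zeb2 had 28.6 and 79.7 TPM, and Gm37787 and Slamf7 12.5 and 104 TPM, both smaller gaps. The gaps of BE692007, Gm16712 and Gm40578 changed less. The wide SDs of Gm20234, Gm2245 and Gm40578 come with deviations of -1.28, -2.09 and -1.68 in replicate 2.

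**Figure D4:**
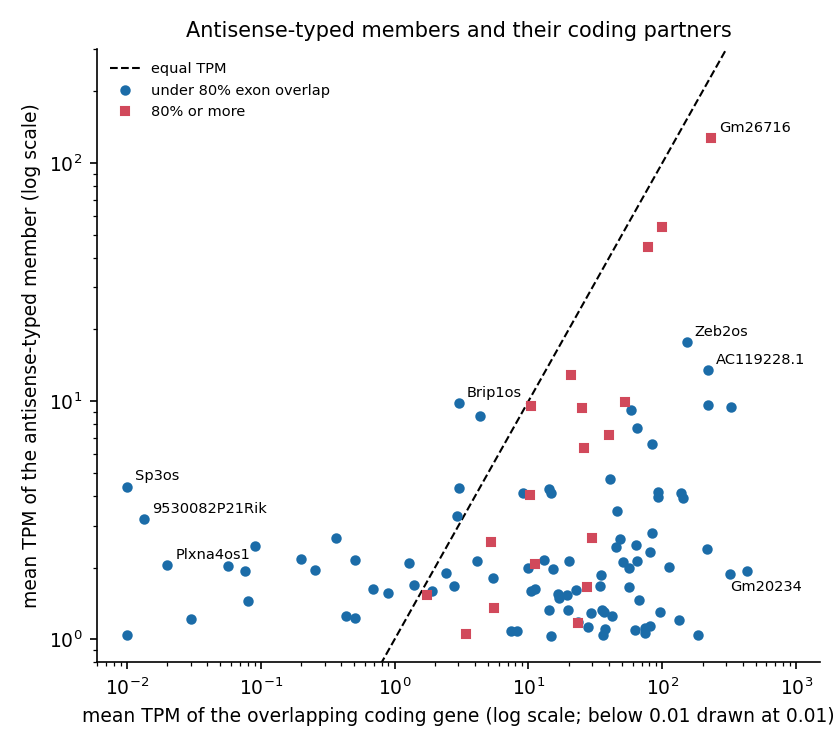
Mean TPM of 108 antisense-typed members against that of the protein-coding gene they overlap, both on log axes. The dashed line marks equal TPM, and red squares are members with 80% or more of their exonic bases inside exons of that gene. Most points lie to the right of the line, and those to its left have partners of at most 4.31 TPM.

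The authors' tables gave the members unequal support. In the read-based tables, made without an alignment file, coding genes had a median of 0.410 of their gene-table TPM and members 0.478. Relative to the coding median, 18 members (7.83%) were more than 4-fold below it and 10 (4.35%) more than 4-fold above it, against 0.266% and 0.0532% of coding genes. Exon overlap was counted only with the partner, the coding gene of longest overlap on the other strand. Of the 18 low members, 14 were among the 21 with 80% or more of their exonic bases inside the partner's exons. The 80 with a smaller overlap held 0 and the 129 with none held 4. Exons of other coding genes were not counted, so Sp3os, which overlaps exons of Sp3, is among the 129.

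Gm26716, wholly inside exons of the syndecan gene Sdc3, had 141, 120 and 120 TPM in the gene tables and was listed at 0 in the read-based tables. Gm17122 inside Coro1c and Gm37335 inside Hs6st1 were at 0 there too, with 9.94 ± 3.95 and 2.55 ± 1.21 TPM in the gene tables. The 4 without overlap were Gm10076, Gm49207, Gm23925 and Gm26825. Gm49207 has no such overlap, but 96.1% of its bases align to the coding gene Ahsa1 at 99.6% identity, and it had 30.4, 20.9 and 15.7 TPM against 0. Gm10076, among the 12 most abundant, is 99.5% identical to the ribosomal protein gene Rpl41 over 99.7% of its length and had 289 against 0.408 TPM. Gm36161, 95.7% identical to Gm21188, kept a relative ratio of 0.91. Overlap did not always go with a low value, since Gm15655 (opposite Maf, 100%), Gm26778 (opposite Kctd12, 100%) and Gm26669 (opposite Zfp36l1, 92.5%) had relative ratios of 0.99, 1.13 and 1.26. The largest ratios the other way were Gm26809 with 41.3 against 5.78 TPM, Gm15726 with 7.88 against 1.53, Gm43305 with 21.9 against 5.45 and Bc1 with 9.90 against 2.71. For these members the gene-table level is uncertain.

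**Figure D5:**
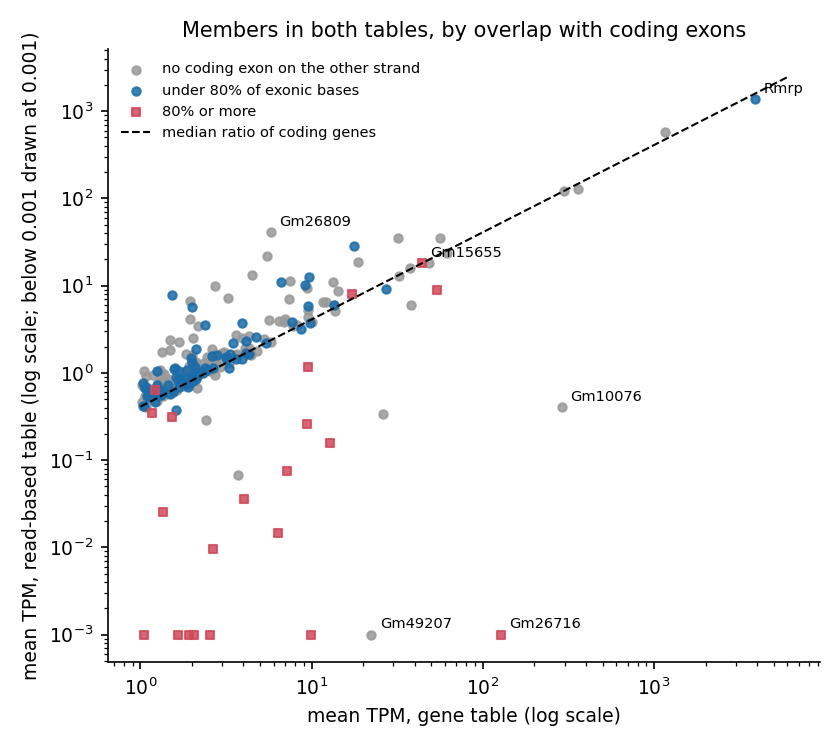
Mean TPM of each of the 230 members in the read-based tables against the gene tables, on log axes. Colour gives the share of exonic bases inside exons of the partner, the coding gene of longest overlap on the other strand. Exons of other coding genes were not counted, also where the key reads no coding exon. The dashed line is the median ratio of coding genes, 0.410. Most members with little or no overlap lie near the line, with 4 of them more than 4-fold below and 10 more than 4-fold above it, while 14 of the 21 red squares fall far below it.

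Most members had few annotated exons. Their longest transcripts had a median of 1535 bases, from 132 in Gm23925 to 17946 in Xist, 48 members had a single exon, 94 had 2, and 107 had a single annotated transcript. Just inside the threshold stood Gm4285 (1.11, 1.02 and 0.92 TPM), 5033406O09Rik (1.04, 1.01 and 1.01 TPM) and Gm15601 (1.6, 0.45 and 1.05 TPM), and just outside it A930007I19Rik, Gm47469 and 1110002L01Rik with means of 0.99, 0.99 and 0.987 TPM. In replicate 2 alone 52 members were below 1 TPM, against 4 in replicate 1 and 13 in replicate 3, and 167 were at 1 TPM or more in every library. A threshold of 2 TPM would leave 134 members.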

How the data were processed

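Gene tables deposited by the authors hold expected counts, which need not be whole, and TPM; transcript tables deposited by the authors hold estimated counts and TPM from the same alignments or, in the read-based tables, from the reads. Per the file headers the layouts are those of RSEM and kallisto. The deposited percent of each gene held by a transcript was read but is not reported. Build mm10 and annotation M21 were named in accompanying text files; aligner and quantifier names: not given in the sources used here. TPM depends on every abundant RNA of a library.

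Rows naming no gene (0.356%, 0.125% and 0.104% of counts) were left out. Counts were rounded for edgeR 4.0.16 (TMM, filterByExpr, intercept only) and DESeq2 1.42.0 in R 4.3.3; similarity came from blastn 2.17.0. Partners were the coding genes with the longest overlap on the other strand. Log2 ratios of pairs used a pseudocount of 0.01. Libraries differed beyond counting noise (chi-square per degree of freedom 44.7 to 113). No test between groups was possible with 1 group; p-values are not given. On simulated counts with a coefficient of variation of 0.2 edgeR returned 0.207 over 13354 genes. There, 100 genes set 2 log2 units lower in replicate 2 returned a median deviation of -1.97. Another 100 set 1 log2 unit lower returned -0.93, and 43% of these were below -1. Of 9994 unchanged genes, 0.680% were below -1. Every simulated gene had the same spread, below the members' median of 0.281, so these shares do not carry over to members. Alternatives were thresholds, pseudocounts, tables, scalings and each library left out.

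The members and gene lists were chosen with earlier results of these data known. Genes named were the 12 with the highest mean TPM, the 6 with the largest and 4 with the smallest SD at 2 TPM or more, 3 on each side of the threshold, 4 with the largest table ratio each way, 6 and 4 antisense pairs at the ends of the ratio, members with a described role and those most like Rmrp; others were chosen after their values were seen.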

Additional observations from a re-analysis of the deposited data

How the results depend on the processing

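Of 68 alternatives over 12 results, 52 stayed within 1.5 times the count or within a tolerance, and 16 did not. The tolerance was the SD over the libraries for the share, level and deviations. For the median SD and coefficient of variation it was the SD of the values with a library left out, which is lenient. The median deviation in replicate 3 went from 0.10 to 0.02 among members at 1 TPM or more in every library and still counted as within it. No median deviation changed sign, and most other results cannot. Of the 68, 12 were added after the data were seen. The number of members was 390 at a threshold of 0.5 TPM, 134 at 2 TPM and 562 once TPM was scaled to nuclear coding genes alone, and 206 to 269 with a library left out. Their share of TPM was 0.290% in the read-based tables and 0.346% without Rmrp, and 0.608% to 0.866% with a library left out. The median level was 1.64 on the log2(TPM + 1) scale, 1.13 with a pseudocount of 0.1, 1.08 in the read-based tables and 3.01 after rescaling, and 1.56 to 1.81 with a library left out. The median SD of members was 0.41 with a pseudocount of 0.1, 0.37 for DESeq2 size-factor counts and 0.18 in the read-based tables, and 0.18 to 0.31 with a library left out; coding genes stood at 0.18, 0.12, 0.12 and 0.10 to 0.16. The median coefficient of variation was 0.176 to 0.375 with a library left out. Antisense members above their partner were 14 by expected counts, which favour the longer gene, and 22 to 23 with a library left out. Members that differed between tables by more than 4-fold were 27, against 139 at 2-fold and 127 to 144 with a library left out. Members low in replicate 2 were 24 among those at 1 TPM or more in every library and 56 to 58, and those more than 4-fold below the coding ratio 18 to 19, with a library left out. No paired analysis was possible because there was 1 group. Depth limits members of under 50 mean counts, which were 41, and those of short effective length, under 20 bases in 3.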

Other observations

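Among all members, including some described above, 27 started within 1000 bases of a protein-coding gene read in the opposite direction, the arrangement of a shared, divergent promoter. Their median level was 1.80 TPM, and 25 of their coding neighbours were at 1 TPM or more. In replicate 2, 2 of the 27 had a deviation below -1, against 53 of 200 among the other members and 0.723% of coding genes. These counts include members below 1 TPM in replicate 2 that met the threshold through the other libraries. The contrast was not repeated without them. The median SD of log2(TPM + 1) was 0.21 for the 27, against 0.32 for the other members. Median deviations in replicate 2 were closer, at -0.19 for the 27 and -0.24 for the other members. Among neighbours with roles in immune signalling, 4833419F23Rik had 1.81 ± 0.55 TPM (SD, n = 3) beside 20.0 ± 5.30 for Map3k8, the kinase that links Toll-like receptors to the ERK pathway. Gm16094 had 7.52 ± 3.26 TPM beside 84.8 ± 15.1 for the interferon-induced nuclear body gene Sp110, and 4930599N23Rik 1.597 ± 0.10 TPM beside 56.1 ± 11.9 for the interferon-induced gene Parp12. Of the 27, 3 were above their neighbour, Brip1os, Gm28959 and Gm17344, with Brip1os at 9.79 TPM beside 0.380 ± 0.061 for the DNA repair helicase gene Brip1. Gm17344 was barely above, at 1.17 ± 0.30 TPM beside 1.09 ± 0.22 for Phlpp2. Gm28959 and Gm17344 lie for 100% and 87.3% of their exonic bases inside coding exons of the other strand, so their levels are uncertain. These pairs were named after their values were seen.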
